A study of Caenorhabditis elegans with 4 samples.

Results

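Closely paired LIN-35::GFP binding sites are combined ChIP-seq peaks whose midpoint lies 1000 bp or less from the midpoint of another combined peak on the same chromosome. After 1 repeated entry was dropped, 626 of the 4793 distinct combined peaks (13.1%) met this rule, and the other 4167 are called isolated here. The series has 2 samples of chromatin precipitated with an antibody against GFP and 2 input samples. All 4 came from hermaphrodite larvae of the first larval stage (L1) that had been fed and grown at 20 °C. Formaldehyde was used at 2% for all 4. The strain, YL409, carries the *unc-119(ed3)* III mutation and the integrated transgene *vrIs60*, with *unc-119* (+) as the rescue marker. The transgene places LIN-35, tagged with GFP and FLAG, under the *lin-35* promoter and a *dpl-1* 3′ untranslated region, and the strain had not been outcrossed. The same genotype underlies the ChIP and the input samples. The profile is that of a tagged transgene product in whole larvae, without resolution by cell type.

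In *Caenorhabditis elegans* the pocket protein family, to which mammalian retinoblastoma protein belongs, is represented by LIN-35. It does not bind DNA by itself, but joins the MuvB core with the E2F and DP proteins in the DREAM complex, which sits mainly at promoters and represses transcription, including that of cell cycle genes and, in somatic cells, germline genes. Worm genes are compact and often stand close to each other, so that promoters of divergent genes, or start sites of neighbouring genes, can lie within a short distance. The genes at the sites described below were not analysed here, since the peak coordinates are in WormBase WS220 and the gene table at hand uses another build.

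The measurements are peak positions and the authors' Peak number, which orders each list, with 1 at its head. The replicate 1 list held 26583 peaks and the replicate 2 list 28727, in which most peaks have the same default width. Read depth is unknown. A member counted as supported by a replicate when it overlapped one of its peaks by at least 1 bp, and the replicate peak with the nearest midpoint gave its place there. Shares are given with Wilson 95% intervals and medians with exact binomial 95% intervals, which cover counting error only. These intervals treat each peak as a separate draw, although paired peaks enter in groups of 2 or more. Intervals that involve paired peaks can therefore be too narrow, and their overlap or lack of it is no test. No test was run over peaks, because the peaks of a pair share a locus and only 2 ChIP samples exist, so the differences between paired and isolated peaks are descriptions.

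The 626 peaks formed 293 groups. Pairs made up 258 of these, and the other 35 were longer runs, namely 31 of 3 peaks, 3 of 4 peaks and 1 of 5 peaks. Midpoints within the 258 pairs lay 161 to 999 bp apart, with a median of 677.5 bp. Of all 4787 distances between neighbouring combined peaks, 333 (6.96%) were within the limit, and a further 416 lay between 1000 and 2000 bp. The limit falls within a continuous range of distances. The 3 widest pairs lay 990 bp apart on X, 998 bp on chromosome II and 999 bp on chromosome I, and the next distances above it were 1001 bp on chromosome I, 1002 bp on I and 1002 bp on V.

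Spacing was uneven below 500 bp. No neighbours lay within 100 bp of each other, 18 lay over 100 to 200 bp apart and 40 over 200 to 300 bp. The next 100 bp held only 6 neighbour distances. Counts then stood at 28 for over 400 to 500 bp, 43 for over 500 to 600 bp and 63 for over 900 to 1000 bp, after which they were 42 to 49 in each 100 bp up to 1500 bp. The sparse interval, over 300 to 400 bp, contains the default peak width of the combined list, 324 bp. All 40 pairs whose peak boxes overlapped, by up to 125 bp, had midpoints 300 bp apart or less.

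**Figure D1:**
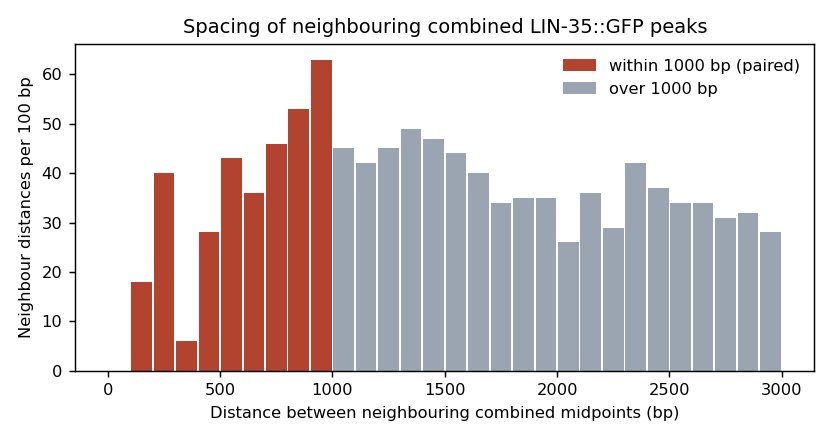
Number of distances between neighbouring combined midpoints (vertical axis) per 100 bp of distance (horizontal axis), with distances within 1000 bp in red and longer ones in grey. The 6 distances over 300 to 400 bp stand between 40 in the bin to their left and 28 in the bin to their right.

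The members of the closest pairs mostly did not match separate peaks in both replicates. A pair was called resolved when its members matched different peaks in each replicate. Of the 47 pairs up to 300 bp apart, 19 were resolved (40.4%, interval 27.6 to 54.7%). This held for 27 of 30 pairs over 300 to 500 bp (90%, 74.4 to 96.5%) and for 162 of 181 pairs over 500 to 1000 bp (89.5%, 84.2 to 93.2%). Replicate 1 matched separate peaks to 24 of the 47 closest pairs and replicate 2 to 39. In 22 of them both members matched the same replicate 1 peak, and in 7 the same replicate 2 peak. These counts depend on the match by nearest midpoint, and whether the sites themselves are separate was not tested. They also depend on peak width, since 1 replicate peak can match both members only if it spans the gap between them. Over all pairs this gap had a median of 409.5 bp, longer than the default replicate widths of 300 and 336 bp. In many wider pairs resolved thus means only that each member had a match. Over 300 bp no pair had both members on the same peak of a replicate, and the unresolved pairs there lacked a match for a member, in replicate 1 in 20 pairs and in replicate 2 in 2.

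The closest pair of all, on chromosome III at 13275818 to 13275956 and 13275887 to 13276210, shows such a case. Its members had combined numbers 850 and 4248. In replicate 1 they matched peaks 790 and 2986, but in replicate 2 both matched peak 814. The pair on chromosome I at 2639619 to 2639899 and 2639881 to 2639983, 173 bp apart, was resolved in both. Its first member had number 115 in the combined list, 84 in replicate 1 and 140 in replicate 2. Its second member had 1152, 2590 and 2992 in the same lists, so the member at the lower coordinate stood far ahead in each. The third of the closest pairs, on chromosome IV at 4660417 to 4660578 and 4660623 to 4660718, was also 173 bp apart. Its members had numbers 821 and 5780 in replicate 1, and 1028 and 1805 in replicate 2.

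**Figure D2:**
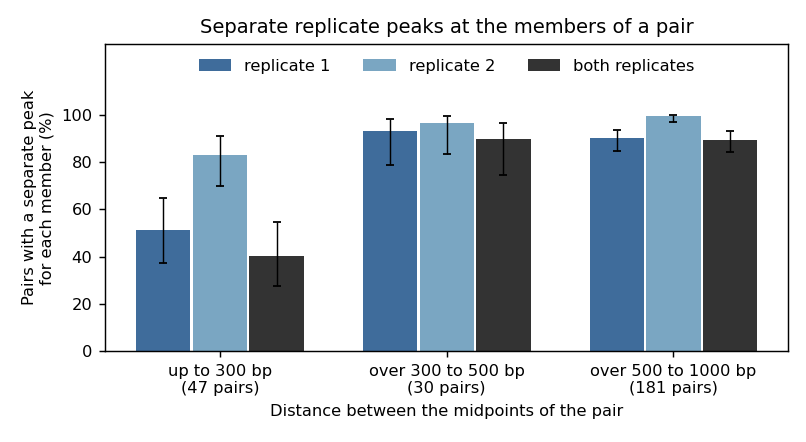
Percent of 2-peak pairs whose members match separate peaks in replicate 1, in replicate 2 and in both, for 3 ranges of midpoint distance, with Wilson 95% intervals as bars. In pairs up to 300 bp apart the share in both replicates is 40.4%, against 90% and 89.5% in the wider ranges. Many wider pairs have a gap that no replicate peak of default width can span.

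Over all distances, 208 of the 258 pairs were resolved in both replicates (80.6%, 75.4 to 85.0%), 215 in replicate 1 and 248 in replicate 2. With only the better-placed peak kept wherever combined peaks overlap, 531 paired peaks remained and 88.4% of the pairs found among them were resolved. In the resolved pairs the replicates measured nearly the same spacing. Its median was 713.5 bp in replicate 1 and 701 bp in replicate 2. Within a pair the 2 replicate spacings differed by a median of 42 bp, and by 100 bp or less in 154 of 208 pairs (74.0%). Across pairs the spacings had Spearman's rho of 0.91 and Pearson's r of 0.91 (n = 208 pairs). Both were matched to the same combined peaks, which keeps them close.

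Paired peaks were found in both replicates about as often as isolated ones when any overlap counted. Of the 626 paired peaks, 600 overlapped a peak in each replicate (95.8%, 94.0 to 97.2%), against 3945 of 4167 isolated peaks (94.7%, 93.9 to 95.3%). The share over all distinct combined peaks was 94.8%. The combined list was made from the same replicates, and the replicate lists are much longer than it. High support in either group is thus largely built in, and similar shares are no independent measure of reproducibility. Of the other paired peaks, 23 overlapped replicate 2 only and 3 replicate 1 only. The match was less exact in position, however. Where both replicates had a peak, their midpoints lay a median of 32 bp apart at paired peaks (28 to 35 bp) and 23 bp at isolated peaks (22 to 24 bp). When support required a replicate midpoint within 100 bp, 81.3% of paired peaks (78.1 to 84.2%) and 87.7% of isolated peaks (86.6 to 88.6%) had it in both, so the order of the groups turned. It also turned, with overlapping intervals, by replicate 2 alone, which supported 99.5% of paired and 100.0% of isolated peaks. The replicate midpoints stood 41.5 bp apart in peaks with a neighbour within 300 bp, 30 bp in those with the nearest neighbour at over 1000 to 2000 bp, and 23 bp beyond 10000 bp.

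Paired peaks overlapped several replicate 1 peaks in 88 cases (14.1%) and isolated peaks in 168 (4.03%), with 5.34% over all combined peaks. For replicate 2 these were 127 paired peaks (20.3%) and 283 isolated peaks (6.79%), with 8.55% over all. The pairing rule builds in part of this, since the neighbouring site can itself supply the second peak. Further sites shared by the replicates but absent from the combined list lay within 1000 bp of 93 paired peaks (14.9%, 12.3 to 17.9%) and of 513 isolated peaks (12.3%, 11.3 to 13.3%), with overlapping intervals.

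The strongest LIN-35 sites were less often paired. Of the paired peaks, 38 had a number within the first 500 (6.07%, 4.45 to 8.22%), against 462 isolated peaks (11.1%, 10.2 to 12.1%), and the share over all combined peaks was 10.4%. Both replicates gave similar values by their own numbers. In replicate 1, 40 paired peaks (6.39%) and 457 isolated peaks (11.0%) stood among the first 500. In replicate 2 these were 37 paired peaks (5.91%) and 461 isolated peaks (11.1%). Members that matched the same replicate peak were each counted with its number. The lists share their peaks with the combined list, so they are not independent of it. Among the first 100 combined places, 3 peaks were paired (0.479% of paired peaks) and 97 isolated (2.33% of isolated peaks), with 2.09% over all. Among the first 1000 these were 111 (17.7%) and 889 (21.3%), with 20.9% over all.

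The 3 paired peaks of the first 100 are named because of this low count, after their values were seen. Number 52 lay on chromosome I at 3266654 to 3266917 and had number 129 in replicate 1 and 24 in replicate 2. Number 56 lay on chromosome III at 10357749 to 10358044, with 73 and 51. Number 65 lay on chromosome I at 315102 to 315388, with 65 and 79. Their neighbours stood 687, 909 and 940 bp away, so none belonged to an overlapping pair.

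The whole distribution of places was shifted less than its head. The median number was 2585.5 for paired peaks (2419 to 2831) and 2360 for isolated peaks (2290 to 2438), with overlapping intervals. On the autosomes alone it was 2569.5 for paired peaks (2390 to 2794) and 2233.5 for isolated peaks (2145 to 2312), with intervals that do not overlap. The middle 50% ran from 1425.2 to 3751.2 for paired and from 1170.5 to 3574.5 for isolated peaks. By replicate 2 numbers the medians were 2636 for paired (2481 to 2833) and 2372 for isolated peaks (2299 to 2444). By replicate 1 numbers they were 2355 for paired (2153 to 2547) and 2300.5 for isolated peaks (2221 to 2371), close to each other. The paired peaks were not alike in this. The replicate 1 median was 1802 with a neighbour within 300 bp, 2241 at over 300 to 500 bp and 2502.5 at over 500 to 1000 bp. Combined medians there were 2562.5, 2662 and 2598.5. In 22 of the 47 closest pairs both members took the number of the same replicate 1 peak. The part of such shared matches in the replicate 1 medians was not tested. On each of the 6 chromosomes the paired median came later in the combined list and in replicate 2, but in replicate 1 on only 4, since on I and X the paired peaks came earlier there. The gap was widest on chromosome III in the combined list, with medians of 2796 for paired and 2088.5 for isolated peaks, and narrowest on IV, with 2583 and 2435.5. Scores could show little of any difference, since 90.4% of paired and 91.3% of isolated peaks sat at the ceiling score (91.2% over all).

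**Figure D3:**
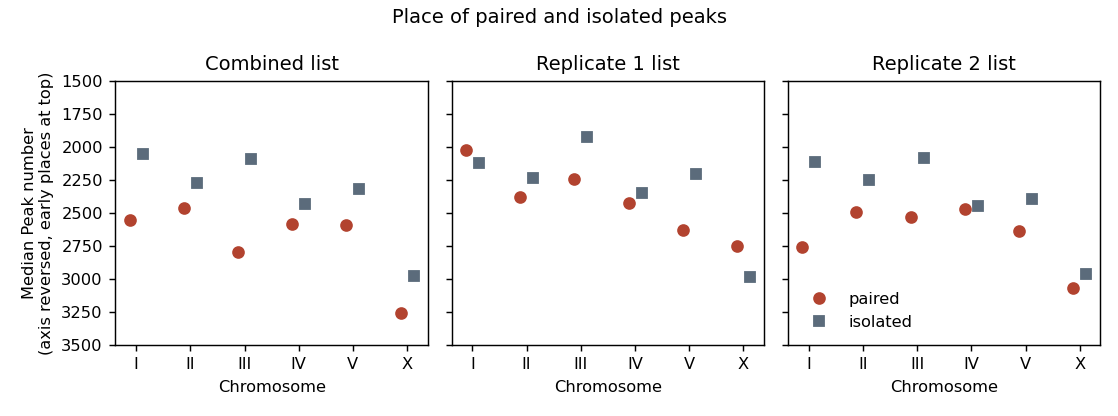
Median Peak number (vertical axis, reversed so that early places stand at the top) of paired peaks (circles) and isolated peaks (squares) on each chromosome, in the combined list and by the matching peaks of replicate 1 and replicate 2. Paired medians lie below isolated ones on all 6 chromosomes in the combined list and in replicate 2, and on 4 of 6 in replicate 1.

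The low share of strong sites did not end at the limit of 1000 bp. Peaks whose nearest neighbour lay over 1000 to 2000 bp away had 53 of 697 within the first 500 (7.60%, 5.86 to 9.81%). The share was 7.43% at over 500 to 1000 bp (33 of 444). It was 1.47% at over 300 to 500 bp (1 of 68, 0.260 to 7.87%) and 3.51% up to 300 bp (4 of 114, 1.37 to 8.68%). At over 2000 to 5000 bp it was 12.8% (153 of 1191), at over 5000 to 10000 bp 12.7%, and beyond 10000 bp 10.3%. Peaks with a combined neighbour within 2000 bp had low shares and peaks farther apart had higher ones, without a steady trend beyond. The low shares concern neighbours in the combined list. Of 513 isolated peaks with a further site shared by the replicates within 1000 bp, 66 stood within the first 500 (12.9%, 10.2 to 16.0%). Of the 3654 isolated peaks without such a site, 396 did (10.8%, 9.87 to 11.9%). The distance classes also differ in their content of X peaks, which seldom stood within the first 500. X made up 15.8% of peaks up to 300 bp and 20.6% at over 300 to 500 bp. It made up 6.31% at over 500 to 1000 bp and 18.1% beyond 10000 bp. The part of X in these shares was not tested.

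The 2 members of a pair often stood far apart in the list. The earlier-placed member of a pair had a median number of 1736 and the later-placed 3564, an order that the naming fixes. The members of a pair differed by a median of 1187 places, with the middle 50% from 484.2 to 2131.5. Only 1 pair had both members within the first 500, whereas 30 pairs had 1 member there and 227 had none. Since 10.4% of all combined peaks stood within the first 500, most partners of any peak lie outside it. The partners of these 31 leading members had a median number of 1988, ranging from 307 to 4600, against a median of 2397 over all combined peaks, and 8 of the 31 stood within the first 1000, against 20.9% over all. Across all pairs, the places of the lower-coordinate and the higher-coordinate member were weakly related (Spearman's rho of 0.14, n = 258 pairs, all from the same list). In the resolved pairs rho was 0.11 by replicate 1 numbers and 0.13 by replicate 2 numbers (n = 208).

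The replicates mostly put the same member first. Among the 208 resolved pairs the better-placed member was the same in 150 pairs (72.1%, 65.7 to 77.8%) and differed in 58. Agreement was clearly higher only where the members stood farthest apart in place in replicate 1. The pairs were split into 3 sets by the ratio of their replicate 1 numbers. With ratios of 1.01 to 1.69 the leader was the same in 43 of 69 pairs (62.3%, 50.5 to 72.8%). With ratios of 1.71 to 3.62 it was the same in 45 of 70 (64.3%, 52.6 to 74.5%). With ratios of 3.69 and above it was the same in 62 of 69 (89.9%, 80.5 to 95%). The intervals of the first 2 sets overlap widely, so the rise lies in the third set. The log2 ratios of the members' numbers had Spearman's rho of 0.66 and Pearson's r of 0.73 between replicates (n = 208 pairs).

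All 31 pairs with a member within the first 500 were resolved in both replicates, and 30 of these had the same leader in both. The combined numbers were made from the same replicates, so this choice favours agreement. The combined leader was that of replicate 2 in 187 of 208 resolved pairs (89.9%) and that of replicate 1 in 169 (81.2%). Earlier-placed members lacked a replicate 1 match in 5 of 258 pairs and later-placed ones in 17. Replicate 2 lacked 1 earlier-placed and 2 later-placed members. Widths also differed by place: 157 earlier-placed members (60.9%) and 226 later-placed members (87.6%) had the default width of 324 bp, the rest being narrower.

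**Figure D4:**
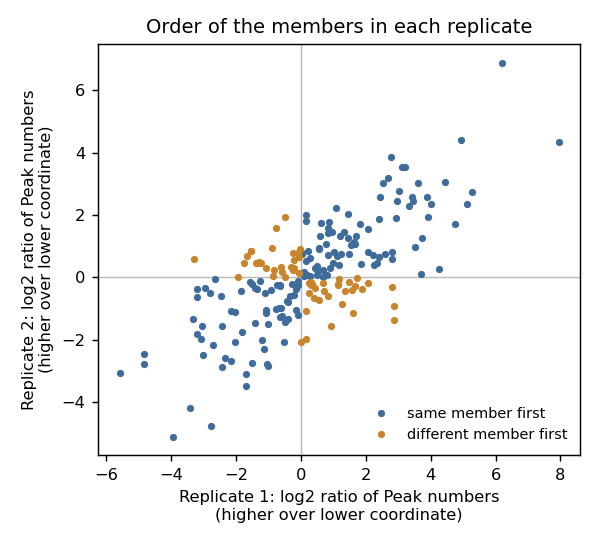
Log2 ratio of the Peak numbers of the 2 members (higher over lower coordinate) in replicate 1 (horizontal) and replicate 2 (vertical) for the 208 resolved pairs. Blue points, 150 pairs, have the same member first in both replicates, and orange points, 58 pairs, have a different one.

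The pair in which both members ranked highest lay on chromosome IV at 16415135 to 16415373 and 16415649 to 16415879, with midpoints 510 bp apart. Its members had combined numbers 294 and 307. Their numbers were 288 and 329 in replicate 1, and 299 and 315 in replicate 2, so both replicates gave the members almost equal places. The pair next in this order, on IV at 3384638 to 3384870 and 3385296 to 3385568, was unequal. Its second member led in replicate 1, with 242 against 527, and in replicate 2, with 133 against 650. The third, on chromosome III at 7335337 to 7335444 and 7336214 to 7336394, was again nearly even, with 732 and 787 in replicate 1 and 634 and 653 in replicate 2. The largest ratio of combined numbers among the 10 pairs of this kind was on chromosome I, where combined peak 52 at 3266654 to 3266917 stood beside peak 707 at 3266005 to 3266192. In replicate 1 these had numbers 129 and 884, and in replicate 2 numbers 24 and 659.

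The other pairs of these 10 kept to chromosomes II, III, IV and V. On IV, the pair starting at 15471491 and 15472472 had combined numbers 454 and 696, and the overlapping pair starting at 3050532 and 3050795 had 352 and 737. In that overlapping pair the leader changed, with replicate 1 numbers of 541 and 390 and replicate 2 numbers of 327 and 1243. On II, the pair starting at 12677917 and 12678498 had combined numbers 541 and 709. Its leader changed too, with 674 and 633 in replicate 1 and 500 and 860 in replicate 2. The second pair on II started at 5661038 and 5661686, with combined numbers 742 and 937. On V, near the chromosome's left end, the pair starting at 8172 and 8854 had 480 and 754. On III, the pair starting at 2804583 and 2805148 had 889 and 183. The midpoints of the pairs on II lay 571 and 705 bp apart, and those of the pair on III 615 bp.

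Paired peaks on X stood lower in the list than those on the autosomes, and so did isolated X peaks. The median combined number on X was 3258 for paired and 2978 for isolated peaks. On the autosomes it was 2569.5 and 2233.5. By replicate 1 numbers the X medians were 2749.5 for paired and 2988.5 for isolated peaks. No paired X peak was within the first 500, of 60, against 8 of 605 isolated X peaks (1.32%). A count of 0 of 60 allows a share of up to 5%, by 3 counts, so a difference from isolated X peaks was not detectable at this number. The best X pair, at 15606809 to 15607132 and 15607543 to 15607624, had combined numbers 1855 and 1300. Its leader changed between the replicates, with 1622 and 2162 in replicate 1, and 1775 and 1115 in replicate 2. The next started at 10568387 and 10568826, 324 bp apart, with combined numbers 2037 and 2230, and its first member led in both replicates (1002 and 1403, then 2350 and 2485). The third started at 13583896 and 13584825, with combined numbers 2380 and 2374.

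Chromosomes differed in how many of their sites were paired. The share was highest on chromosome IV, 131 of 805 peaks (16.3%, 13.9 to 19.0%), and III, 144 of 928 (15.5%, 13.3 to 18.0%). Chromosome I had 125 of 951 (13.1%, 11.1 to 15.4%) and II 93 of 752 (12.4%, 10.2 to 14.9%). The lowest were V, 73 of 692 (10.5%, 8.47 to 13.1%), and X, 60 of 665 (9.02%, 7.07 to 11.4%). Peak density differed as well, with 46.0 combined peaks per Mb on IV, 67.3 on III, 63.2 on I, 49.2 on II, 33.1 on V and 37.5 on X. Chromosome IV had the highest paired share with a density below those of I, II and III, but the intervals of these 4 shares overlap. Without its window of 11 to 12 Mb, described below, the share on IV was 14.2% (105 of 742, 11.8 to 16.8%), below that on III. The part of density in these shares was not tested. On the autosomes 256 of 566 paired peaks (45.2%, 41.2 to 49.3%) and 1457 of 3562 isolated peaks (40.9%, 39.3 to 42.5%) lay in the centre of the chromosome (0.333 of its extent), with intervals that just overlap. Chromosome V went the other way, with 38.4% of paired and 45.9% of isolated peaks in its centre, whereas the paired share was the higher one on I, II, III and IV.

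X had a low share of the paired sites, but not at the shortest distances. X held 60 of the 626 paired peaks (9.58%, 7.52 to 12.1%) and 605 of the isolated peaks (14.5%, 13.5 to 15.6%), with 13.9% over all combined peaks. Among peaks with the nearest neighbour at over 500 to 1000 bp, X held 28 of 444 (6.31%, 4.40 to 8.96%). At over 300 to 500 bp it held 14 of 68 (20.6%, 12.7 to 31.6%), and up to 300 bp 18 of 114 (15.8%, 10.2 to 23.6%). With a limit of 500 bp X held 17.6% of paired peaks (12.7 to 23.8%) and 13.7% of isolated peaks (12.8 to 14.8%), with overlapping intervals, so the low share on X was not seen there. At over 1000 to 2000 bp X held 82 of 697 (11.8%, 9.58 to 14.4%). Beyond 2000 bp it held 523 of 3470 (15.1%, 13.9 to 16.3%). The low share of X among paired peaks rested on distances of over 500 to 1000 bp.

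Paired peaks were most numerous in 1 stretch of chromosome IV. Between 11 and 12 Mb, 26 of 63 combined peaks were paired (41.3%, 30.0 to 53.6%), the highest number of any of the 103 windows of 1 Mb that held combined peaks. Without it chromosome IV had 105 of 742 paired (14.2%, 11.8 to 16.8%). The 26 peaks formed 10 pairs and 2 runs of 3, spread from midpoint 11026160 to 11957289, so they were no single cluster. Of these, 25 were found in both replicates (94.8% over all combined peaks) and 2 stood within the first 500 (10.4% over all), both near the shares over all peaks. Their median number was 2607.5 and that of the 37 isolated peaks in the window was 2217. The windows with the next highest numbers were 8 to 9 Mb of chromosome III, with 23 of 101 peaks paired (22.8%), and 7 to 8 Mb of chromosome I, with 20 of 90 (22.2%). In 12 windows no peak was paired. This window was singled out after its values were seen.

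The 35 longer runs held 110 peaks and spanned 361 to 3186 bp between their outer midpoints, with a median of 1465 bp. All members matched separate peaks in 31 runs in replicate 1, in 32 in replicate 2 and in 29 in both. Overlapping combined peaks occurred in 9 runs. Chromosome III had 11 runs, IV had 8, I had 7, and II, V and X had 3 each. The best member of a run had a median number of 1083, which is early by its choice as the best of 3 or more, and 5 runs held a peak within the first 500.

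The longest run lay on chromosome V at 5843467 to 5846976 and held 5 peaks. Their combined numbers, in order of position, were 2546, 1841, 4511, 1253 and 4124. Replicate 1 gave 2237, 2455, 10881, 1633 and 19360, and replicate 2 gave 2426, 1858, 4922, 1165 and 3757. The fourth peak led in all 3 lists, and the members with combined numbers 4511 and 4124 were weak in replicate 1. Each replicate also had a further peak between the first and second members, number 4132 in replicate 1 and 11333 in replicate 2, which the combined list does not hold.

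The 3 runs of 4 peaks were alike in having separate matches in both replicates. The run on chromosome III, at 12368307 to 12370181, had combined numbers 2794, 1714, 1498 and 1083. Replicate 1 gave 2831, 2388, 2121 and 857, and replicate 2 gave 2688, 1694, 1418 and 1437, so the first member was the weakest in each list. The run on chromosome IV, at 10934727 to 10937181, had 4723, 808, 657 and 1766. Replicate 1 gave 6160, 719, 669 and 1459, and replicate 2 gave 5838, 967, 662 and 1927, the same order of the 4 members in each list. The run on X, at 6741554 to 6744100, had 2894, 908, 2325 and 1963, with its second member first in replicate 1 (784) and replicate 2 (1011).

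**Figure D5:**
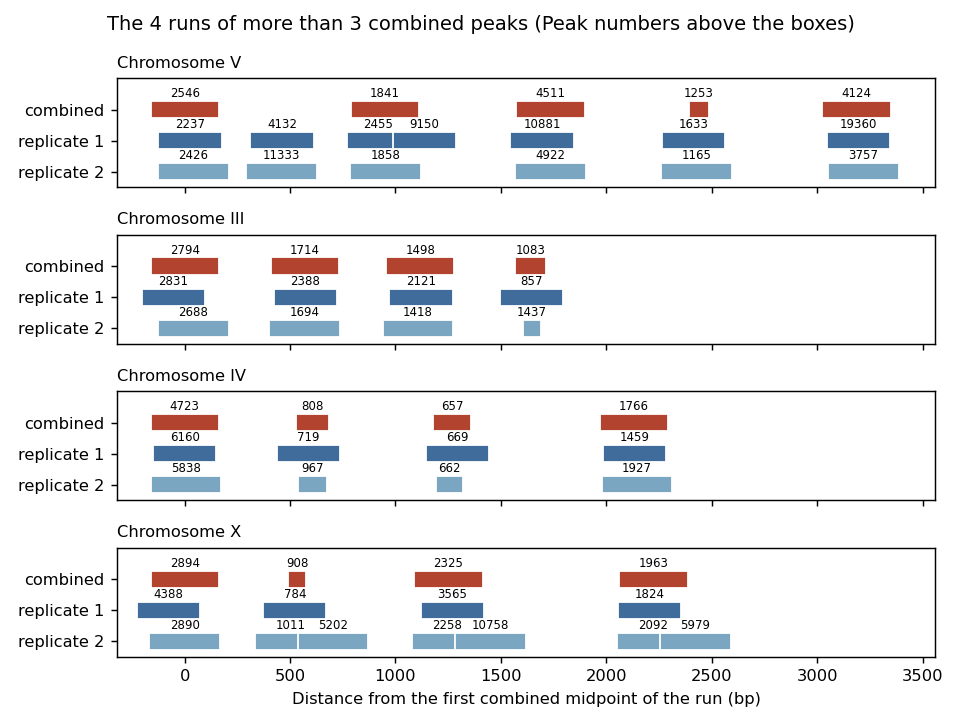
Peaks of the combined list, replicate 1 and replicate 2 (boxes to scale, with Peak numbers above them) in the 4 runs of more than 3 combined peaks, against distance in bp from the first combined midpoint. Every combined peak of these runs has its own replicate peak in both lists, and the run on chromosome V spans 3186 bp.

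Runs of 3 peaks were found on every chromosome. On chromosome I they started at 882502, 3822736, 9380181, 9382822, 10174955, 13337176 and 14756354. Those at 9380181 and 9382822 followed each other, with 1300 bp between the last midpoint of one and the first of the next, so that both runs together lay between 9380181 and 9384074. The run at 882502 had 3 overlapping peaks that matched only 2 peaks in either replicate. In the run at 13337176 the outer members were strong and the middle one weak: the combined numbers were 206, 2858 and 256, with 177, 1587 and 319 in replicate 1 and 258, 3441 and 224 in replicate 2. On chromosome II runs started at 9060392, 10558302 and 11634085.

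Chromosome III carried runs of 3 starting at 348647, 844021, 4018122, 6887573, 7710065, 8124368, 8873082, 8982101, 11352212 and 11935018. The run at 844021 had a strong last member with combined number 346, 323 in replicate 1 and 386 in replicate 2, and a middle member with no match in replicate 1. The run at 348647 held 3 peaks of similar place, with combined numbers 1462, 929 and 1212. The run at 8982101 was followed, 1175 bp beyond its last midpoint, by a pair that starts at 8984927.

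On chromosome IV runs of 3 started at 991069, 2993325, 4469885, 8431587, 9525020, 11025999 and 11592939, and the last 2 of these lie in the window with most paired peaks. On V they started at 3578827 and 16355850, and on X at 4144231 and 8154491. The run on X at 4144231 came 1603 bp after a pair that starts at 4142141. The run at 8154491 was the weakest of all runs by its best member, at combined number 4066.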

How the data were processed

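Members and lists were chosen with earlier results of these data known. The authors deposited peak lists for either ChIP replicate and a combined list, whose coordinates are WormBase WS220 according to the file headers. Their source column reads spp_via_IDR, which names the SPP caller and the irreproducible discovery rate. No source used here gives the aligner, versions, thresholds or combining rule. The score values deposited by the authors have no stated scale and a ceiling, so they served only to describe ties. The inputs, and mitochondrial peaks, entered no comparison. The labels do not say whether replicates came from separate cultures.

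Entries of the combined list with the same chromosome, start and end were reduced to the one with the better Peak number (chromosome II at 13199678 to 13200045, numbers 192 and 2624). Neighbouring midpoints within 1000 bp were linked into pairs and runs. Members were matched to replicate peaks by overlap of at least 1 bp, taking the nearest midpoint. A chromosome's extent was the largest peak end in any list. Peaks named by position were all runs of 3 or more, the 10 pairs with the best later-placed member, the 3 closest and 3 widest pairs, the 3 next distances and the 3 best X pairs. Scripts used scipy 1.17.1, pandas 2.3.3, numpy 2.4.6 and matplotlib 3.10.9 under Python 3.11.15, and the pairing and matching steps were tested on simulated lists.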

Additional observations from a re-analysis of the deposited data

How the results depend on the processing

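Of 87 alternative values, 57 stayed within the 95% interval of the value reported (or within 1.5 times the count) and 30 moved. Paired peaks numbered 182 with a limit of 500 bp, 1323 with 2000 bp and 145 when only the earlier part of the combined list was used, by construction of the limits. With 500 bp, 97.3% of paired peaks were in both replicates, 2.75% were within the first 500, 17.6% were on X (against 13.7% of isolated peaks, a turned order with overlapping intervals) and 61.4% of pairs were resolved. In the earlier part of the list, paired and isolated peaks had both-replicate shares of 100% and 99.4%, medians of 1205 and 1198.5, shares within the first 500 of 14.5% and 21.3%, and X shares of 6.21% and 10.3%, and 93.8% of pairs were resolved. Matching by midpoints within 100 bp gave both-replicate shares of 81.3% and 87.7% and 63.2% resolved pairs. Replicate lists reduced to their top peaks, 2 times the length of the combined list, gave 88.5%, 86.2% and 66.7%. Autosomes alone gave isolated peaks a median of 2233.5 and a share within the first 500 of 12.7%, and isolation by over 10000 bp a median of 2245. With overlapping combined peaks reduced to one, 88.4% of pairs were resolved. These last 2 alternatives were chosen after seeing the data. Leaving out 1 replicate gave 96.3% to 99.5% support of paired peaks, 94.7% to 100.0% of isolated peaks, 83.3% to 96.1% resolved pairs, paired medians of 2355 to 2636, isolated medians of 2300.5 to 2372, and shares within the first 500 of 5.91% to 6.39% for paired and 11.0% to 11.1% for isolated peaks; without replicate 1 the order of support turned, with overlapping intervals. The paired median came later than the isolated one under all 8 alternatives run for it, and the intervals did not overlap with the 2000 bp limit (2649 and 2297.5), the 700 bp gap (2694.5 and 2346), without replicate 1 (2636 and 2372) and on autosomes (2569.5 and 2233.5). The paired share within the first 500 was below the isolated share under all 8 alternatives run for it, with overlapping intervals in the earlier part of the list. Apart from the limits, the causes were not tested. No paired analysis was possible because the inputs, numbered like the ChIP samples, contribute no peak list, and no test was run. Depth is unknown.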
